A study of Mus musculus with 8 samples.

Results

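The kidney's organic ion and drug transporters were examined across 6 gene families: Slc22a, Slco, Slc47a, Abcb, Abcc and Abcg. Of the 67 protein-coding mouse genes in these families, 47 had a mean of at least 10 expected counts over the 8 kidneys and are described, among 55401 genes listed in all. They were 21 of 25 Slc22a genes, 8 of 14 Slco genes, 1 of 2 Slc47a genes, 7 of 10 Abcb genes, 8 of 10 Abcc genes and 2 of 6 Abcg genes. Just inside the threshold stood *Slco1a4* (mean expected count 12.6) and *Slc22a27* (13.5), and just outside it *Slc22a3* (8.63) and *Slc22a14* (4.75).

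RNA-Seq libraries were made from whole kidneys of 4 control mice (SIK1f/f;SIK2f/f,SIK3f/f per the labels) and 4 SIK mutant mice (the same floxed genotype with Six2-Cre). All 8 mice thus carried floxed (flanked by loxP sites) salt-inducible kinase genes. Six2-Cre recombines in nephron progenitors and the tubule and glomerular epithelium that descends from them. Cells of other descent in the mutant kidneys, stromal, endothelial and blood cells among them, thus retained the kinases. The text of the study gives surviving mutants 1 *Sik1* allele that was not floxed (Sik1 fl/+), whereas the labels give SIK1f/f, so the group is called SIK mutant. The study's methods describe controls as littermates that carried no Cre, and state that both sexes were used. Neither they nor the labels give the age of these 8 mice, their sex by sample, or which control shared a litter with which mutant.

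The comparison asks whether loss of the kinases in nephron cells went with a change in the RNA of these carriers. Library totals were 10179648 to 10925100 expected counts. *Sik3* was lower in every mutant (33.7 to 43.1 CPM, counts relative to library totals corrected by TMM factors) than in every control (58.6 to 66.5), while the ranges of *Sik2* overlapped and *Sik1* was higher in the mutants (43.4 to 54.1 CPM against 36.8 to 43.1). Counting was by whole gene, so a transcript lacking the floxed part still counts toward its gene. Markers of proximal tubule (*Lrp2*, *Slc34a1*) and thick ascending limb (*Umod*) were present in every kidney. In 2 of the 4 controls (controls 3 and 4) genes of the Y chromosome (*Kdm5d*, *Uty*, *Ddx3y* and *Eif2s3y*) summed to 0 and 0.175 CPM, against 76.8 to 94.9 in the other 6 kidneys. These 2 kidneys also expressed *Xist* at 260.5 and 297.8 CPM, against at most 0.494 elsewhere. Genotype differences are therefore given over all 8 kidneys and also with a term for Y-linked reads, in which the genotype difference sets the 4 mutants against controls 1 and 2. The term itself sets controls 1 and 2 against controls 3 and 4. It cannot be told apart from any other difference between those pairs of controls.

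Proximal tubule cells clear drugs, toxins and metabolites from blood into urine. Basolateral carriers of the SLC22 and OATP (Slco) families take organic anions and cations into the cell, and apical carriers, among them the MATE exchangers (Slc47a) and ATP-driven pumps of the ABC families (MRPs, P-glycoproteins and BCRP), release them into the lumen. Urate, prostaglandins, carnitine and conjugated steroids share these routes, and several of the carriers are known to differ between male and female mouse kidney.

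Levels compared between genes are in TPM, an abundance scaled to gene length and library total. The member with the highest mean was *Slc22a12* (779 ± 231 TPM, SD, n = 8 kidneys of both genotypes), the apical urate exchanger URAT1. *Slc22a18*, a transporter gene of an imprinted domain, had 422 ± 33.8 TPM. Below it stood *Slc22a6* (286 ± 108 TPM), *Slc22a8* (225 ± 50.3 TPM) and *Slc47a1* (224 ± 42.3 TPM), whose ranges over kidneys overlapped. In the ABC families the highest levels were those of *Abcg2* (152 ± 11.2 TPM), *Abcc2* (57.1 ± 7.87 TPM) and *Abcb8* (35.3 ± 3.91 TPM), a transporter of the mitochondrial inner membrane. Over kidneys, *Slco1a1* and *Abcc3* spanned from 0 to 340.0 and from 1.52 to 118.4 CPM.

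**Figure D1:**
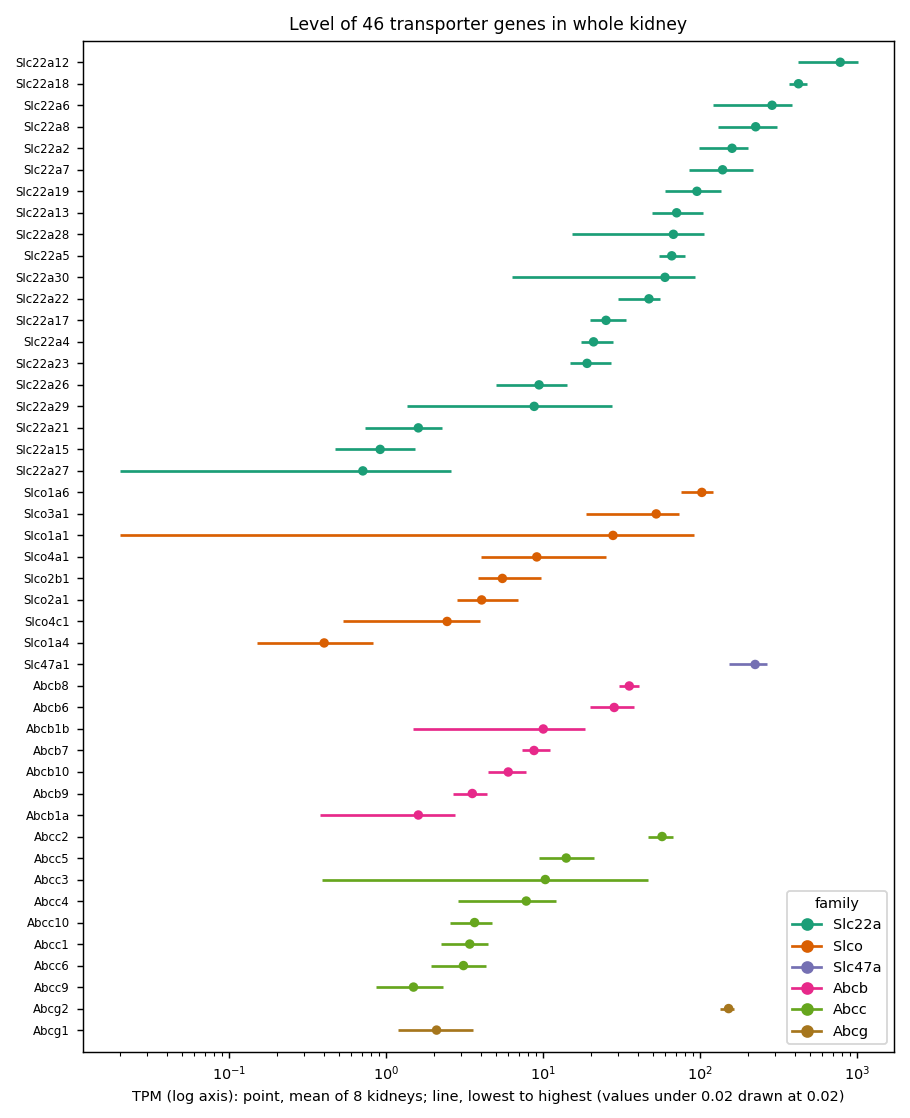
TPM on a log axis for each of 46 genes, by family, with the mean of 8 kidneys as a point and the lowest to highest kidney as a line. *Slc22a12* has the highest mean (779 TPM), and *Slco1a1*, *Abcc3*, *Slc22a29* and *Slc22a27* have the longest lines.

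The summed TPM of the 21 Slc22a members was 2363 and 2370 in controls 3 and 4 and 2880 to 3255 in the other 6 kidneys. The Abcc sum was highest in those 2 controls (123.8 and 137.5 TPM, against 75.9 to 107.5 elsewhere). The Abcb sum (83.6 ± 8.6 TPM in controls, 103.2 ± 5.28 in mutants) and the Abcg sum (145.0 ± 7.28 and 162.1 ± 4.77 TPM) were higher in every mutant than in every control. These sums follow their most abundant genes, and TPM shifted the median of all genes by 0.09 (log2) toward the mutants and by 0.18 toward controls 3 and 4. In the tests on counts given below, the genotype difference (log2) was 0.04 for *Abcg2* and -0.06 for *Abcb8*. It was 0.28 for *Abcb6* and 0.86 for *Abcb1b*. In each of these genes the mutants overlapped the controls, and none was called over 8 kidneys.

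Between genotypes over all 8 kidneys, no transporter gene passed the test. Of 47 members 46 entered the edgeR quasi-likelihood test, *Slc22a27* falling under its filter on low counts, and 0 reached an FDR (Benjamini-Hochberg adjusted p over 14326 genes) under 0.05, as did 0 (0%) of all genes. At an unadjusted p under 0.05 there were 9 members, against 6.36% of all genes: 2 were higher in mutants (2.76% of all genes were) and 7 lower (3.59%). DESeq2 called 1 member, *Slco1a6*, with 0.468% of all genes called. The median log2 fold change of the 46 members was 0.04, with 28 positive and 18 negative, beside -0.00 over all genes (7049 and 7277). By family the medians ran from -0.18 (Slco) to 0.24 (Abcb). In 2 members the 4 mutants did not overlap the 4 controls, against 4.03% of all genes, and both were lower in mutants (2.39%). The count at an unadjusted p under 0.05 dropped to 5 without any 1 of the mutants or without control 4, and that of members not overlapping, which leaving out a kidney can only keep or raise, was 4, 5 and 4 without controls 1, 2 and 4 (8.03%, 6.82% and 6.21% of all genes).

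*Slco1a6*, an organic anion transporting polypeptide of mouse kidney, had 187.0, 186.3, 236.5 and 234.5 CPM in controls 1 to 4 and 105.2, 136.5, 120.6 and 166.3 CPM in mutants 1 to 4. Every mutant lay below every control, which is what chose the gene, and controls 3 and 4 were the highest of all. Its log2 fold change was -0.68 ± 0.153 (SE), a level 37.4% lower, with edgeR FDR = 0.414 and DESeq2 FDR = 0.0119. Against controls 1 and 2 alone it was -0.50 ± 0.152 (edgeR FDR = 0.258, DESeq2 FDR = 0.0939). On the TPM scale, which follows each kidney's effective transcript length, the difference was -0.26 (limma FDR = 0.617), where the median of all genes was 0.09.

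*Slc22a17*, which encodes a receptor for the iron-binding protein lipocalin-2 and was placed in the SLC22 family by sequence, had 49.6, 42.3, 53.5 and 57.3 CPM in controls and 39.1, 40.0, 33.4 and 41.0 CPM in mutants. The lowest control stood just above the highest mutant. The log2 fold change was -0.40 ± 0.110 (edgeR FDR = 0.511), and -0.26 ± 0.112 against controls 1 and 2 (FDR = 0.388).

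The proximal tubule marker list moved in the same direction in part: 3 of its 10 genes (*Slc5a2*, *Pck1* and *Miox*) were lower in mutants at an unadjusted p under 0.05 (3.59% of all genes were), 0 were higher (2.76%), and 0 reached an FDR under 0.05. The summed marker level was 11908 to 15813 CPM in controls and 10343 to 12358 CPM in mutants. In whole kidney, fewer cells of a type and less RNA per cell cannot be told apart, and the part of this list in the values of *Slco1a6* and *Slc22a17* was not tested.

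The other 7 members at an unadjusted p under 0.05 over 8 kidneys were *Abcb6*, *Abcb10*, *Abcb9*, *Slc22a4*, *Slco2a1*, *Abcc3* and *Slc22a29*, of which *Abcb10* and *Abcb9* are named after their values were seen. *Slc22a4*, the ergothioneine carrier OCTN1, had 45.1, 35.4, 46.1 and 32.3 CPM in controls and 30.9, 29.9, 36.0 and 32.4 CPM in mutants (log2 fold change -0.30 ± 0.129, edgeR FDR = 0.775), with overlapping groups, and -0.32 ± 0.158 with the term for Y-linked reads. *Abcb6*, a porphyrin transporter, had 45.3, 46.3, 35.3 and 33.1 CPM in controls and 53.8, 46.7, 45.6 and 47.9 in mutants (0.28 ± 0.124, FDR = 0.779). Controls 3 and 4 lay below all other kidneys and controls 1 and 2 overlapped the mutants, so that the difference was 0.08 ± 0.0974 with the term (FDR = 0.76). *Abcb10*, a transporter of the mitochondrial inner membrane, averaged 21.2 ± 1.08 and 25.1 ± 2.54 CPM (0.24 ± 0.096, FDR = 0.746, and 0.30 ± 0.117 with the term), and *Abcb9*, a lysosomal peptide transporter, 12.3 ± 1.63 and 9.97 ± 0.757 CPM (-0.30 ± 0.129, FDR = 0.771, and -0.20 ± 0.150 with the term). The largest 2 of these differences, in *Abcc3* and *Slc22a29*, turned direction against controls 1 and 2, as given with those genes.

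**Figure D2:**
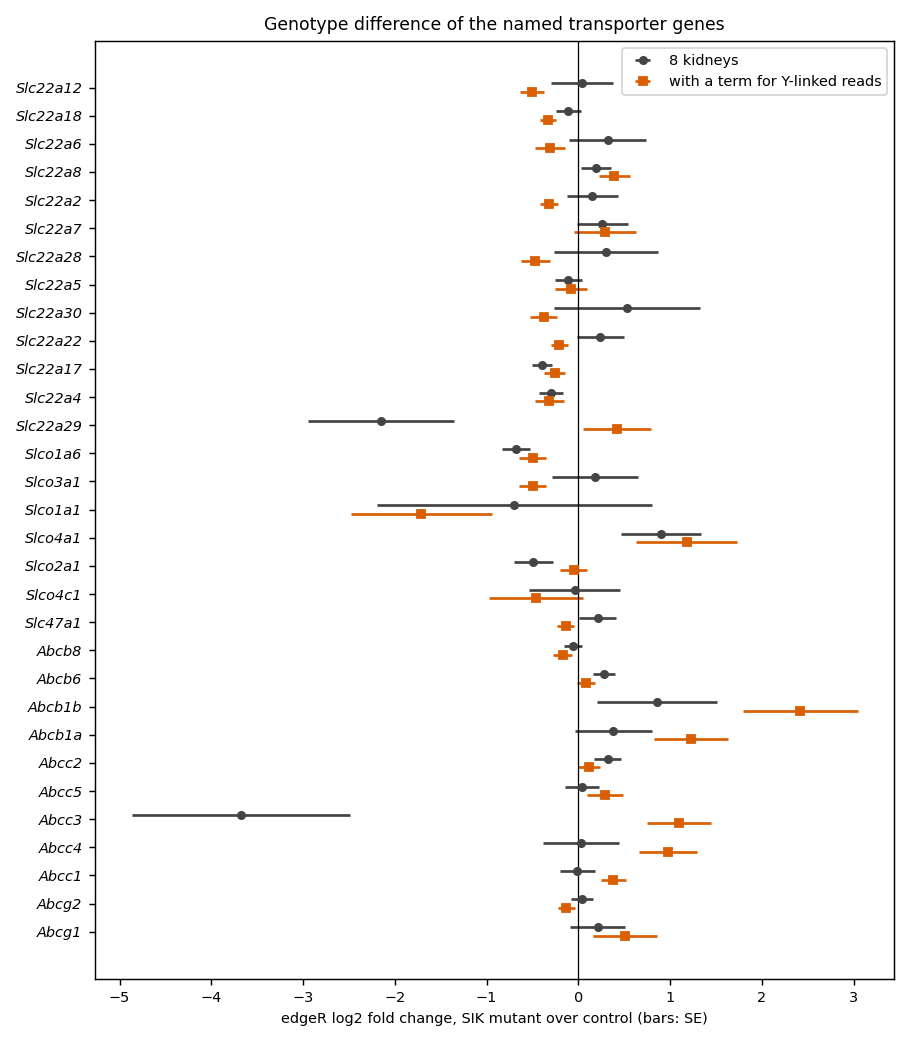
edgeR log2 fold change of SIK mutant over control with SE bars for the 31 named genes, over 8 kidneys (grey circles) and with a term for Y-linked reads (orange squares). *Slco1a6* and *Slc22a17* lie left of 0 in both, while *Abcc3* and *Slc22a29* move from -3.68 and -2.15 to 1.10 and 0.42.

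With the term for Y-linked reads, 0 of 46 members again reached an edgeR FDR under 0.05 (0.00698% of all genes did). At an unadjusted p under 0.05 there were 16 members, against 12.3% of all genes: 7 were higher in mutants (6.38%) and 9 lower (5.93%). Those lower were 7 Slc22a genes with *Slco1a6* and *Slco3a1*, and those higher were 6 ABC transporters with *Slc22a8*. DESeq2 with the same term called 3 members (1.4% of all genes), *Abcc4* higher and *Slc22a12* and *Slc22a18* lower. DESeq2 on the 6 kidneys with Y-linked reads called *Abcb1b* and *Abcc4* higher and *Slc22a12* lower (1.28% of all genes). In 15 members the 4 mutants did not overlap controls 1 and 2, against 21.8% of all genes. All these values rest on 2 control kidneys, and the differences by Y-linked reads use the same 2.

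More members were divided by Y-linked reads than by genotype. The term was called at an edgeR FDR under 0.05 for 15 of 46 members, against 8.26% of all genes: 10 were higher with Y-linked reads (5.09%) and 5 lower (3.18%). The median size of the log2 difference, regardless of sign, was 0.50 over members and 0.25 over all genes, while for genotype over 8 kidneys it was 0.24 and 0.12. Members thus exceeded all genes in both comparisons. The term sets 2 kidneys against 2 and genotype 4 against 4, so the sizes of the 2 comparisons are not on an equal footing. Controls 3 and 4 lay outside the range of the other 6 kidneys in 25 members, against 23.8% of all genes: above in 9 (10.7%) and below in 16 (13.1%). All 15 calls kept their direction under 19 alternative analyses and 10 stayed called under each. Leaving out any 1 control puts a single kidney in one arm of the term, which is then taken to vary like the other kidneys, so these fits rest on the spread of the mutants and the remaining pair of controls. The 5 that lost the call in some analyses were *Abcc1*, *Abcc4*, *Slc22a18*, *Slco1a1* and *Slco2a1*. Leaving out control 1 gave them FDRs of 0.166, 0.197, 0.11, 0.0529 and 0.17, and leaving out control 4 gave 0.147, 0.102, 0.157, 0.0621 and 0.154. Without control 3 the FDRs of *Abcc1*, *Abcc4*, *Slc22a18* and *Slco1a1* were 0.0882, 0.119, 0.0803 and 0.0648, and without control 2 those of *Abcc1*, *Abcc4*, *Slc22a18* and *Slco2a1* were 0.113, 0.0994, 0.118 and 0.0816. Without mutant 2 that of *Abcc4* was 0.0511. Calls were also lost with all 8 kidneys. With a replicate block the FDRs of *Abcc1*, *Abcc4*, *Slc22a18* and *Slco2a1* were 0.086, 0.0878, 0.192 and 0.0615. With an offset for effective length those of *Abcc1* and *Abcc4* were 0.0599 and 0.0647. Limma on log2(TPM + 1) gave *Abcc1*, *Abcc4* and *Slc22a18* 0.0803, 0.0614 and 0.129, and limma-voom gave *Slco1a1* 0.111.

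**Figure D3:**
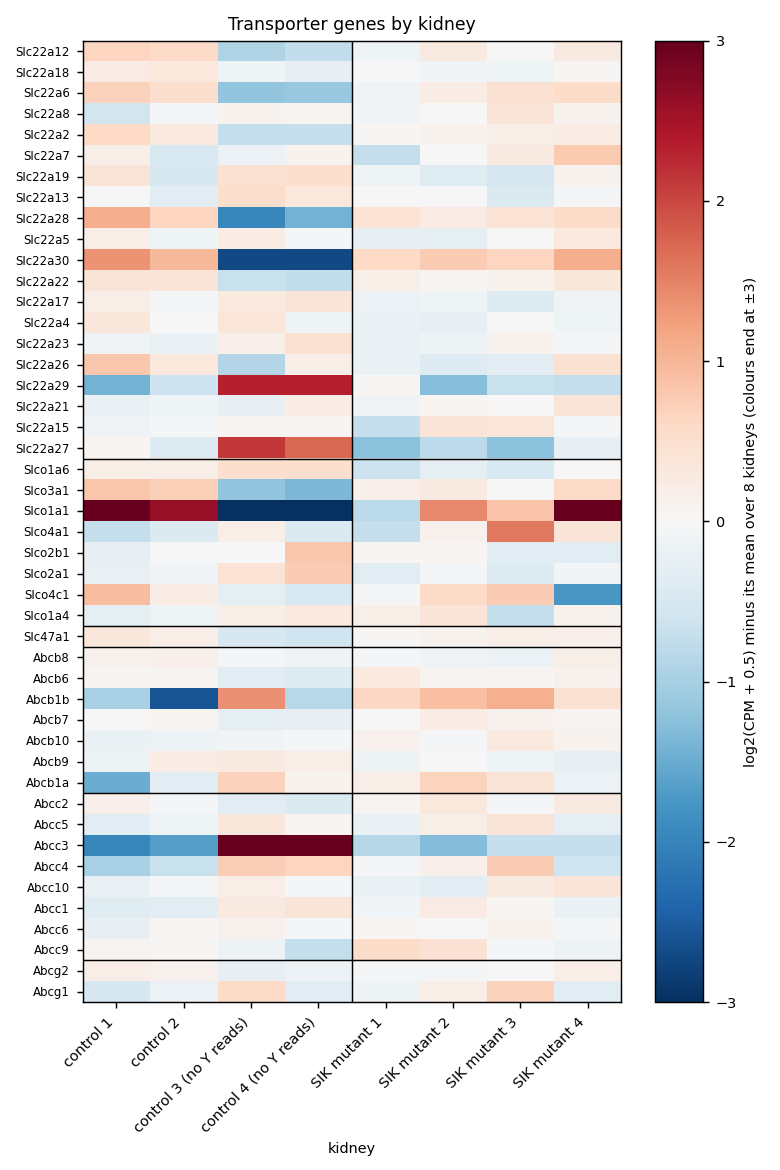
Each row is 1 of 46 genes and each column a kidney; colour is log2(CPM + 0.5) minus the gene's mean over 8 kidneys, red above and blue below. Controls 3 and 4 form the columns that stand apart, blue for *Slc22a30*, *Slco1a1* and *Slc22a28* and red for *Abcc3* and *Slc22a29*. They are also red for *Slc22a27*, which passed the count threshold only through them.

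Of 7 tested genes listed for a known difference between male and female mouse kidney, 5 (*Kap*, *Cyp7b1*, *Acsm3*, *Cyp2e1* and *Cyp4b1*) were higher and 2 (*Slc7a12* and *Cyp4a14*) lower with Y-linked reads, beside the same 5.09% and 3.18% of all genes. Within the 6 kidneys with Y-linked reads the mutants were not all at the level of controls 1 and 2. *Prlr*, the prolactin receptor, had 3.86 and 12.2 CPM in controls 1 and 2, 301.9 and 280.2 in controls 3 and 4, and 129.9, 94.4, 84.6 and 15.6 in mutants. Several transporters below show mutants between the pairs of controls. How many of all genes show that order was not counted. Of all genes, 21.8% had mutants clear of controls 1 and 2, and 23.8% had controls 3 and 4 outside the other 6 kidneys. Both differences use controls 1 and 2, so a deviation of that pair enters both.

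Among the organic anion carriers, *Slc22a6* followed the Y-linked reads and *Slc22a8* and *Slc22a7* were not called. *Slc22a6* encodes OAT1, which takes up p-aminohippurate and many drugs. It had 1523, 1347, 414.9 and 429.2 CPM in controls and 880.7, 1092, 1293 and 1377 CPM in mutants. Controls 3 and 4 were below every other kidney, and the difference of the 2 pairs of controls was 1.77 ± 0.196 on the log2 scale, 3.40-fold (edgeR FDR = 0.00117). Its genotype difference was 0.32 ± 0.418 over 8 kidneys and -0.31 ± 0.163 with the term (FDR = 0.936 and 0.475). Mutant 1 was the lowest of the kidneys with Y-linked reads.

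*Slc22a8* encodes OAT3 and lies 6.2 kb from *Slc22a6* on the same strand. It had 459.3, 658.2, 733.3 and 712.6 CPM in controls and 638.9, 671.0, 885.9 and 729.3 CPM in mutants. Here controls 3 and 4 were within the range of the others (Y-linked reads -0.37 ± 0.191, FDR = 0.259), and the genotype differences were 0.19 ± 0.166 and, with the term, 0.39 ± 0.168 (FDR = 0.897 and 0.389). *Slc22a7*, encoding OAT2, averaged 214.4 ± 40.9 CPM in controls and 256.2 ± 105.7 in mutants, from 135.8 in mutant 1 to 390.0 in mutant 4 (genotype 0.26 ± 0.279, and 0.29 ± 0.341 with the term). *Slco4c1*, a carrier of digoxin and thyroid hormone, averaged 11.1 ± 5.27 and 10.7 ± 6.26 CPM (-0.04 ± 0.495, and -0.46 ± 0.514 with the term). *Slco4a1*, another thyroid hormone carrier, had 10.7, 13.3, 20.8 and 13.3 CPM in controls and 10.7, 19.6, 54.8 and 23.8 in mutants, so its log2 fold change of 0.90 ± 0.436 (FDR = 0.794) leaned on mutant 3. Without that mutant it was 0.31 (FDR = 0.995), and with the term 1.18 ± 0.549 (FDR = 0.423).

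The apical urate exchanger *Slc22a12* had 2166, 2062, 741.5 and 826.8 CPM in controls and 1254, 1649, 1387 and 1663 CPM in mutants. The 4 mutants lay between the 2 pairs of controls, overlapping neither. The difference with Y-linked reads was 1.43 ± 0.156 on the log2 scale (2.7-fold, FDR = 0.00112). Over 8 kidneys the genotype difference was 0.04 ± 0.342 (FDR = 0.991), and against controls 1 and 2 it was -0.51 ± 0.130 (edgeR FDR = 0.207, DESeq2 FDR = 0.0162 with the term and 0.0183 on the 6 kidneys with Y-linked reads). *Abcg2*, the apical ABC pump BCRP that exports urate, had a narrow range of 242.4 to 329.4 CPM over 8 kidneys. Controls 3 and 4 (242.4 and 252.8) lay below all the others. Its difference with Y-linked reads was 0.37 ± 0.113 (edgeR FDR = 0.0762, DESeq2 FDR = 0.0358). Its genotype difference was 0.04 ± 0.124 and, with the term, -0.13 ± 0.0971 (FDR = 0.975 and 0.617).

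*Slco1a1* was detected in the 6 kidneys with Y-linked reads and in neither of the others. It encodes Oatp1a1, a carrier of conjugated steroids known to differ between male and female mouse kidney (chr6:141907282-141946962, minus strand, GRCm38). It had 340.0, 138.9, 0 and 0 CPM in controls and 12.4, 61.5, 40.2 and 179.7 CPM in mutants. No count fell on it in controls 3 and 4, so the mean of the other 6 kidneys was at least 488-fold higher and the lowest of them, mutant 1, at least 47.1-fold higher, against a floor of 3 counts in 1 library (0.264 CPM). The FDR of the term was 0.0111 with edgeR and 0.111 with limma-voom. The mutants' spread left the genotype difference at -0.70 ± 1.5 over 8 kidneys and -1.71 ± 0.769 with the term (FDR = 0.961 and 0.415).

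*Slco3a1*, a widely expressed OATP of prostaglandins and thyroid hormone, had 240.4, 220.9, 59.4 and 52.4 CPM in controls and 151.4, 163.4, 135.1 and 201.0 CPM in mutants. The mutants again fell between the pairs of controls with no overlap. The difference with Y-linked reads was 2.04 ± 0.175 (4.13-fold, FDR = 0.000255) and the genotype difference 0.18 ± 0.466 over 8 kidneys and -0.50 ± 0.142 with the term (edgeR FDR = 0.969 and 0.228, DESeq2 FDR with the term 0.0675). *Slco2a1*, the prostaglandin uptake carrier, went the other way, with 21.1, 23.3, 33.0 and 42.2 CPM in controls and 19.8, 23.8, 18.6 and 23.4 CPM in mutants (Y-linked reads -0.76 ± 0.165, FDR = 0.0235). Its genotype difference of -0.49 ± 0.209 over 8 kidneys (FDR = 0.768) was -0.05 ± 0.146 against controls 1 and 2. *Slc22a22*, the kidney's prostaglandin-specific anion carrier OAT-PG, had 96.4, 96.7, 46.3 and 44.3 CPM in controls and 77.1 to 93.8 in mutants (Y-linked reads 1.09 ± 0.111, FDR = 0.000722). Its genotype difference was 0.24 ± 0.259 over 8 kidneys and -0.21 ± 0.0931 with the term.

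**Figure D4:**
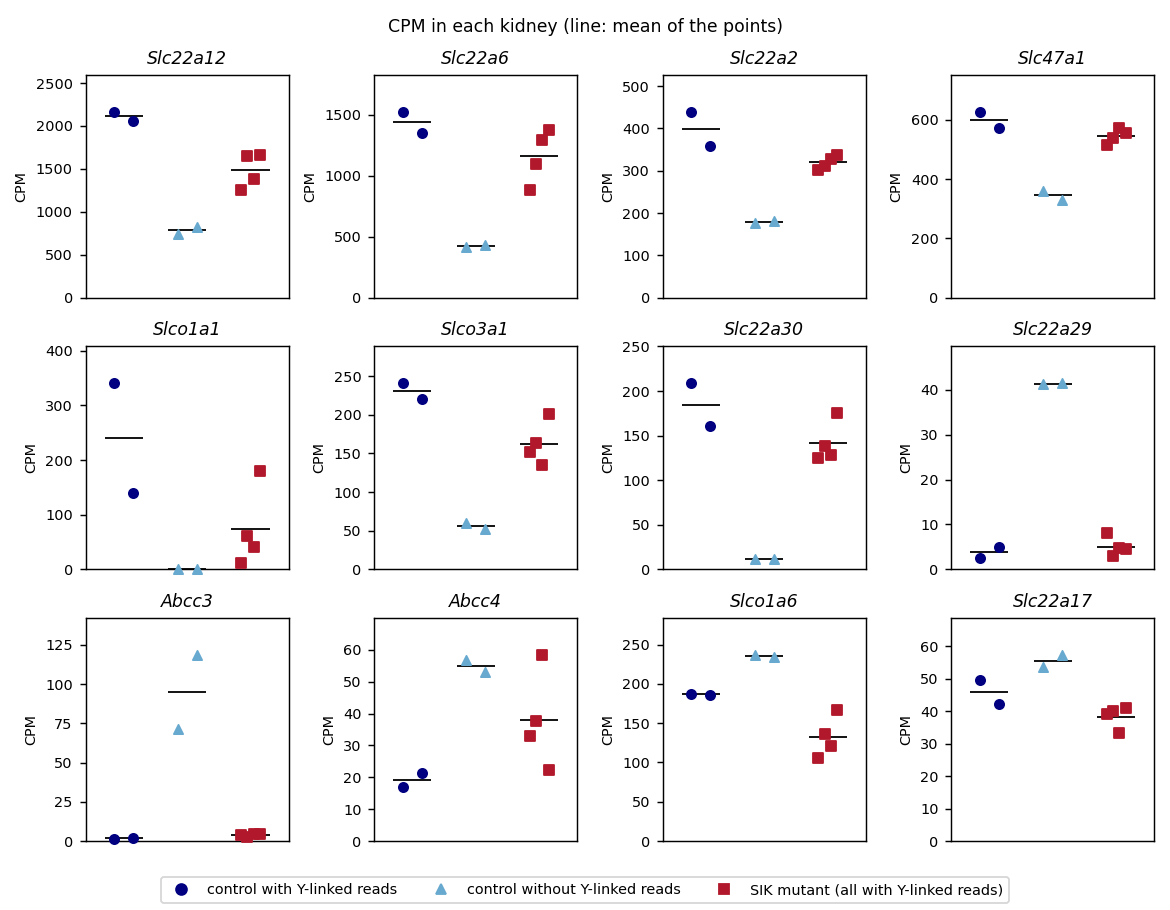
CPM of 12 genes in each kidney on linear axes from 0, for 2 controls with Y-linked reads (dark blue circles), 2 controls without (light blue triangles) and 4 SIK mutants (red squares), with means as lines. Mutants lie between the pairs of controls for *Slc22a12*, *Slc22a2*, *Slco3a1* and *Abcc3*, and below all controls for *Slco1a6* and *Slc22a17*.

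Cation secretion runs from basolateral OCTs to the apical exchanger MATE1. *Slc22a2* (OCT2) had 439.5, 357.6, 176.8 and 180.6 CPM in controls and 301.3, 311.3, 328.7 and 338.3 CPM in mutants. The mutants lay between the pairs of controls, overlapping neither. *Slc22a2* was thus divided by Y-linked reads (1.16 ± 0.121, 2.23-fold, FDR = 0.0008), with a genotype difference of 0.15 ± 0.278 over 8 kidneys and -0.32 ± 0.102 with the term (FDR = 0.952 and 0.276). *Slc47a1* (MATE1) showed the same split on a smaller scale, with 627.1, 572.4, 358.9 and 330.4 CPM in controls and 513.9 to 573.0 in mutants (0.80 ± 0.107, 1.74-fold, FDR = 0.00298). Its mutants overlapped controls 1 and 2, and its genotype difference was 0.21 ± 0.202 over 8 kidneys and -0.14 ± 0.0918 with the term. *Slc47a2*, the other MATE gene, averaged 1.88 expected counts and was under the threshold.

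*Slc22a5*, the carnitine carrier OCTN2, averaged 185.8 ± 22.0 CPM in controls and 172.0 ± 33.1 in mutants, with no call for genotype or Y-linked reads (FDR = 0.936 and 0.89) and genotype differences of -0.11 ± 0.146 over 8 kidneys and -0.08 ± 0.171 with the term. *Slc22a18* had 627.2, 655.2, 478.8 and 440.1 CPM in controls and 517.2, 497.6, 482.6 and 538.1 in mutants. The genotype difference was -0.11 ± 0.139 over 8 kidneys (FDR = 0.932). All mutants lay below controls 1 and 2 (-0.33 ± 0.0888 with the term, edgeR FDR = 0.211, DESeq2 FDR = 0.0437 with the term and 0.0794 on the 6 kidneys), and the Y-linked reads difference was 0.48 ± 0.104 (FDR = 0.0231). On the TPM scale that difference was 0.26 (limma FDR = 0.129), where the median of all genes was -0.18.

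A run of 8 Slc22a genes spanning 955.2 kb of chromosome 19 (GRCm38) held members that were divided in opposite directions. In order these were *Slc22a19*, *Slc22a26*, *Slc22a27*, *Slc22a28*, *Slc22a29*, *Slc22a30*, *Slc22a8* and *Slc22a6*, of which the first 3 are named after their values were seen. All are organic anion transporter genes, and several are found in rodents only. *Slc22a28* (chr19:8062209-8131982) had 206.4, 153.3, 24.9 and 36.2 CPM in controls and 115.6 to 143.3 in mutants (Y-linked reads 2.56 ± 0.200, 5.88-fold, FDR = 0.000139). *Slc22a30* (chr19:8335371-8405111) had 208.5, 160.5, 12.2 and 12.1 CPM in controls and 124.5 to 175.5 in mutants (3.92 ± 0.204, 15.2-fold, FDR = 1.56e-05). *Slc22a29* (chr19:8160165-8218900), which lies between them on the same minus strand, had 2.64, 4.94, 41.3 and 41.4 CPM in controls and 2.94 to 8.03 in mutants (-3.44 ± 0.385, 10.9-fold lower with Y-linked reads, FDR = 0.00117).

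Controls 3 and 4 were thus lowest for the outer genes of these 3 and highest for the middle one. *Slc22a27* resembled the middle gene at far lower counts, with 4.58 and 3.33 CPM in controls 3 and 4 and at most 0.71 elsewhere, and was not tested. *Slc22a19* (219.1 CPM on average in controls 3 and 4, 143.1 in the other 6) and *Slc22a26* (16.8 and 22.5 CPM) were not called (FDR = 0.303 and 0.197). For genotype, *Slc22a28* and *Slc22a30* gave 0.30 ± 0.566 and 0.53 ± 0.797 over 8 kidneys and -0.47 ± 0.158 and -0.38 ± 0.149 with the term (FDR = 0.295 and 0.353), and *Slc22a29* gave -2.15 ± 0.799 and 0.42 ± 0.373 (FDR = 0.715 and 0.676). Reads shared between such related genes are divided by RSEM's estimate. Its posterior SD reached 1.7%, 0.303% and 3.67% of the count for *Slc22a28*, *Slc22a29* and *Slc22a30*.

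The 250 bases before the start of these 3 neighbours are shown because adjacent, related genes differed in direction. They were taken from RefSeq promoters (GRCm38.p6), read 5′ to 3′ on the minus strand, at chr19:8131983-8132232, chr19:8218901-8219150 and chr19:8405106-8405355. Capitals in the last pair mark bases that differ from, or have no partner in, an alignment with the first.
Slc22a28: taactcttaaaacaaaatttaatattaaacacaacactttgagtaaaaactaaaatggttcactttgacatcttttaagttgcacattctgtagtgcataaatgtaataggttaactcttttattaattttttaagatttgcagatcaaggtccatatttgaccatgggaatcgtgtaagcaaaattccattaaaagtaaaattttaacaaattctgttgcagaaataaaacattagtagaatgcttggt
Slc22a29: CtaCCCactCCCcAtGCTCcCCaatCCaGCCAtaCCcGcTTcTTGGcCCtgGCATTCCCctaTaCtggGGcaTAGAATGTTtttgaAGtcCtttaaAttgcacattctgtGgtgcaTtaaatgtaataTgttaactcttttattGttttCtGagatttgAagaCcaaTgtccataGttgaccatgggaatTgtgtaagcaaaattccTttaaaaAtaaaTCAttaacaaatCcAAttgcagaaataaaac
Slc22a30: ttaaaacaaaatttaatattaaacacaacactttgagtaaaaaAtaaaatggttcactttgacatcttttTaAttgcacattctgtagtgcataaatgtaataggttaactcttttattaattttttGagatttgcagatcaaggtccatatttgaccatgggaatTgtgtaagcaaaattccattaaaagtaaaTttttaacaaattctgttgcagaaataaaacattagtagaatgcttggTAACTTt
*Slc22a28* and *Slc22a30*, both higher with Y-linked reads, matched at 238 of 250 bases (95.2%). *Slc22a29*, lower with Y-linked reads, matched each of them at 175 of 250 (70%), with the first stretch of its window differing most. Identities to *Slc22a28*, *Slc22a29* and *Slc22a30*, in that order, were 50%, 55.6% and 51.2% for *Slc22a27*. For the uncalled *Slc22a19* they were 64%, 56% and 65.2%, and for the uncalled *Slc22a26* 56.4%, 48% and 58%. Across the 36 members with a promoter entry, 2 short motifs were searched on both strands of the 250 bases. The STAT site TTCNNNGAA was in 4 members and 7.02% of windows, and the HNF1 half-site GTTAAT was in 3 (*Slc22a6*, *Slc22a8* and *Slc22a29*) and 6.43% of windows. Neither motif contains the other. The *Slc22a8* window belongs to a RefSeq start 1928 bases from the GENCODE start of the gene. These matches describe letters in a window and say nothing of binding.

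**Figure D5:**
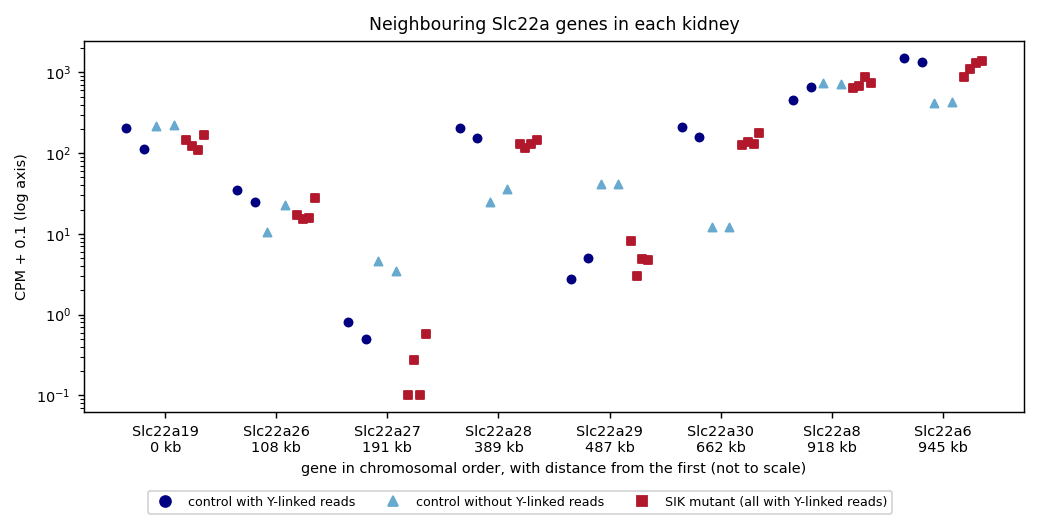
CPM + 0.1 on a log axis for the 8 neighbouring Slc22a genes, in chromosomal order with the distance in kb from the first, in the same 3 sets of kidneys. The 2 controls without Y-linked reads (triangles) drop below the others at *Slc22a28*, *Slc22a30* and *Slc22a6* and stand above them at *Slc22a29*. They also stand above them at *Slc22a27*, which passed the count threshold only through these 2 controls.

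Among the ABC pumps, the MRP (Abcc) genes that edgeR called were all lower with Y-linked reads. *Abcc3* encodes MRP3, a basolateral exporter of conjugates. It had 1.52, 1.98, 71.4 and 118.4 CPM in controls and 3.8, 2.68, 4.36 and 4.33 CPM in mutants. Controls 3 and 4 were far above every other kidney (-5.75 ± 0.325, 53.8-fold, FDR = 2.13e-05). The genotype difference of -3.68 ± 1.19 over 8 kidneys (FDR = 0.688) came with these kidneys, and against controls 1 and 2 alone it was 1.10 ± 0.349 (FDR = 0.275), every mutant lying above both.

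*Abcc4* encodes MRP4, an apical pump of cyclic nucleotides and urate. It had 17.1, 21.2, 56.8 and 53.1 CPM in controls and 32.8, 37.8, 58.3 and 22.4 CPM in mutants. Every mutant was above controls 1 and 2, and mutant 3 was at the level of controls 3 and 4. The Y-linked reads difference was -1.52 ± 0.351 (FDR = 0.0299) and the genotype difference 0.03 ± 0.414 over 8 kidneys and 0.98 ± 0.315 with the term (edgeR FDR = 0.994 and 0.276, DESeq2 FDR 0.0333 with the term and 0.0406 on the 6 kidneys). *Abcc1* (MRP1) had 15.5, 16.0, 24.4 and 26.7 CPM in controls and 17.6 to 24.2 in mutants (Y-linked reads -0.70 ± 0.157, FDR = 0.027, and genotype -0.01 ± 0.192, or 0.38 ± 0.139 with the term). *Abcc2*, the apical MRP2, averaged 212.7 ± 39.9 CPM in controls and 265.7 ± 29.9 in mutants (genotype 0.32 ± 0.145, FDR = 0.781). Controls 3 and 4 had its lowest values, 187.2 and 174.7 (Y-linked reads 0.43 ± 0.138, edgeR FDR = 0.0863, DESeq2 FDR = 0.0383). Its genotype difference was 0.12 ± 0.119 with the term (FDR = 0.712). *Abcc5*, a cyclic nucleotide exporter, averaged 35.7 ± 7.57 and 36.8 ± 8.02 CPM (0.04 ± 0.184, and 0.29 ± 0.191 with the term).

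The 2 P-glycoprotein genes of the mouse, *Abcb1a* and *Abcb1b*, lie 49.6 kb apart on chromosome 5 and share reads (posterior SD up to 5.33% and 2.24% of the count). *Abcb1b* had 11.7, 3.46, 60.8 and 12.8 CPM in controls and 35.9, 43.7, 49.8 and 32.2 CPM in mutants. All mutants exceeded 3 of the controls, and control 3 exceeded them all. The log2 fold change was 0.86 ± 0.653 over 8 kidneys (FDR = 0.884), 2.11 without control 3 (FDR = 0.158) and 2.42 ± 0.628 with the term (edgeR FDR = 0.21, DESeq2 FDR = 0.0694). On the 6 kidneys with Y-linked reads the FDR was 0.0715 with edgeR and 0.00112 with DESeq2, the one setting of these that called it. *Abcb1a* was scarcer, with 1.42, 3.75, 8.19 and 5.25 CPM in controls and 5.65, 8.03, 6.49 and 4.23 in mutants (0.38 ± 0.421, and 1.23 ± 0.403 with the term, FDR = 0.92 and 0.283).

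Adipocyte markers, like *Abcb1b*, were higher in the mutants and control 3 than in the other controls. The sum of 7 markers was 22.3, 29.9, 219.4 and 67.1 CPM in controls and 211.5, 165.6, 187.0 and 261.9 in mutants, so control 3 stood with the mutants. Of the 6 tested, 6 were lower with Y-linked reads at an FDR under 0.05 (3.18% of all genes were) and 6 were higher in mutants with the term at an unadjusted p under 0.05 (6.38%). *Adipoq*, *Plin1* and *Cidec* were at 0 in control 1 and at most 0.79 CPM in control 2. *Abcc3* was highest in control 4 (118.4 CPM) and at 2.68 to 4.36 CPM in the mutants. *Abcc4* had 53.1 CPM in control 4 and 22.4 CPM in mutant 4. The part of the adipocyte markers in the values of *Abcb1b*, *Abcb1a*, *Abcc3* and *Abcc4* was not tested. *Abcg1*, a sterol exporter, had 5.58, 7.01, 12.2 and 6.39 CPM in controls and 7.24, 9.28, 13.3 and 6.25 in mutants (0.21 ± 0.298, FDR = 0.944, and 0.51 ± 0.346 with the term). *Abcb8* averaged 60.9 ± 5.62 and 58.3 ± 6.43 CPM (-0.06 ± 0.102, FDR = 0.947, and -0.17 ± 0.105 with the term).

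Lists of related genes were read from the same fits. Of 20 other carriers of organic solutes, 18 were tested. In the genotype comparison 0 were called, with 1 higher and 4 lower at an unadjusted p under 0.05 (2.76% and 3.59% of all genes were), and with the term for Y-linked reads 1 was higher and 5 lower (6.38% and 5.93%). With Y-linked reads 5 were higher at an FDR under 0.05 and 0 lower (5.09% and 3.18% of all genes). The 5 were *Slc17a1* (1.09) and *Slc17a3* (1.36), phosphate and urate carriers of the apical membrane, *Slc51a* (1.07), a subunit of the basolateral bile acid carrier, *Slc29a3* (0.73), a nucleoside carrier, and *Slc5a8* (1.74), a monocarboxylate carrier, with log2 differences in parentheses. Of 22 regulators of these carriers, all tested, 0 were called for genotype, 2 were higher and 0 lower at an unadjusted p under 0.05, and 3 higher and 3 lower with the term, beside the same shares of all genes. For Y-linked reads 1 was higher (*Nr1h4*, 1.01) and 2 lower (*Nr1i2*, -1.08, and *Prlr*, -5.18).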

How the data were processed

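RNA-Seq was performed on whole kidneys of 8 mice on the BGISEQ500 platform. For each kidney the authors deposited expected counts, RSEM's estimates of reads per gene with no normalisation or pooling, and the TPM values deposited by the authors are as RSEM gives them. The authors also deposited other RSEM output, of which effective lengths and posterior SDs were used. The submitters' processing notes name FastQC, STAR 2.7.2b, RSEM 1.3.0, DESeq2 and mm10, while strand use is not given in the sources used here. Symbols and coordinates came from GENCODE M21 (GRCm38, the assembly of mm10), matching 55141 of 55401 gene IDs without version.

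Expected counts (10179648 to 10925100 per kidney) were rounded and tested with edgeR 4.0.16 (TMM, filterByExpr, quasi-likelihood F test, Benjamini-Hochberg over 14326 genes) in R 4.3.3. The main model had genotype alone. A further model added presence of Y-linked reads, meaning a mean of at least 1 CPM over 4 Y-linked genes. DESeq2 1.42.0, limma 3.58.1 on log2(TPM + 1) and other scalings, filters and left-out kidneys were alternatives. Fits were tested on simulated data. Group values are means ± SD; no permutation p is given for genes chosen by non-overlapping groups, which fix it. The labels name no litter or batch, so p-values measure the spread between these samples.

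Genes named with values were those with non-overlapping genotype groups, those called for Y-linked reads, the 3 most abundant of each family, the 5 with the largest genotype difference (mean of at least 1 CPM) and textbook carriers, 31 in all. Some genes are not reported here. Members, lists and the term for Y-linked reads were chosen with earlier results of these data known. Promoter windows were RefSeq entries nearest the GENCODE start, found for 36 of 47 members, and were aligned globally. The entry's start lay 92986 bases from the GENCODE start for *Abcb1a*, 22372 for *Slco1a6*, 19775 for *Slco2a1* and 1928 for *Slc22a8*. For the others it lay at most 329 bases away. Protein sequences were not used here.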

Additional observations from a re-analysis of the deposited data

Results flagged for a closer look

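In 94 groups of 4 kidneys (47 genes, 2 genotypes), 5 held a kidney that stood far from the other 3, where chance gives about 1 in 20 groups, or 4.7. In each, the gap to its nearest neighbour, as a share of the group's whole range, exceeded Dixon's 95% critical value. Control 3 had 60.8 CPM of *Abcb1b*, against 3.46 to 12.8 in the other controls. *Abcb9* was at 9.84 CPM in control 1, against 12.8 to 13.4. *Slc22a19* was at 112.0 CPM in control 2, against 204.7 to 222.8. *Slco2b1*, a widely expressed organic anion carrier, was at 36.8 CPM in control 4, against 17.5 to 20.7. In SIK mutant 4 *Abcg2* reached 329.4 CPM, and the other mutants had 275.8 to 284.6.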

How the results depend on the processing

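Of 31 named genes, 11 kept the direction of their genotype difference under all 24 alternatives and 20 turned in at least 1. The genes called for genotype, 0 with edgeR over 8 kidneys (911 at an unadjusted p under 0.05), were 67 with DESeq2, 9 with no filter, 5 and 4 with limma on log2(TPM + 0.1) and log2(TPM + 1), 2 with limma-voom, 1 with edgeR's newer fit (legacy switched, chosen after seeing the data), 1 with the term for Y-linked reads, 200 with DESeq2 and that term, and 21 (edgeR) and 188 (DESeq2, chosen after seeing the data) on the 6 kidneys with Y-linked reads. The members called for genotype were 1 with DESeq2, 3 with DESeq2 and the term and 3 with DESeq2 on the 6 kidneys. The members with non-overlapping groups were 15 on the 6 kidneys and 2 to 5 with 1 kidney left out, counts that fewer kidneys can only keep or raise. With 1 kidney left out, 0 to 1 genes were called. Members at an unadjusted p under 0.05 for genotype, 9 in the report, ranged from 5 to 16, and those called for Y-linked reads, 15 in the report, from 10 to 20. The cause was not tested for any of these.

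Genotype log2 fold changes that turned were, with the term for Y-linked reads, *Abcc1* 0.38, *Abcc3* 1.10, *Abcg2* -0.13, *Slc22a12* -0.51, *Slc22a2* -0.32, *Slc22a22* -0.21, *Slc22a28* -0.47, *Slc22a29* 0.42, *Slc22a30* -0.38, *Slc22a6* -0.31, *Slc47a1* -0.14 and *Slco3a1* -0.50. On the 6 kidneys they were *Abcc1* 0.39, *Abcc3* 1.12, *Abcg2* -0.12, *Slc22a12* -0.50, *Slc22a2* -0.31, *Slc22a22* -0.20, *Slc22a28* -0.46, *Slc22a29* 0.43, *Slc22a30* -0.37, *Slc22a6* -0.30, *Slc47a1* -0.13 and *Slco3a1* -0.49 with edgeR, and *Abcc1* 0.39, *Abcc3* 1.12, *Abcg2* -0.12, *Slc22a12* -0.50, *Slc22a2* -0.31, *Slc22a22* -0.20, *Slc22a28* -0.46, *Slc22a29* 0.43, *Slc22a30* -0.37, *Slc22a6* -0.30, *Slc47a1* -0.13 and *Slco3a1* -0.50 with DESeq2. With DESeq2 and the term they were *Abcc1* 0.38, *Abcc3* 1.12, *Abcg2* -0.13, *Slc22a12* -0.50, *Slc22a2* -0.31, *Slc22a22* -0.21, *Slc22a28* -0.47, *Slc22a29* 0.43, *Slc22a30* -0.37, *Slc22a6* -0.30, *Slc47a1* -0.13 and *Slco3a1* -0.50. These settings leave controls 3 and 4 out of the genotype difference by construction. With an offset for effective length they were *Abcc4* -0.04, *Abcc5* -0.47 and *Abcg1* -0.44. On log2(TPM + 0.1) they were *Abcb8* 0.09, *Abcc1* 0.13, *Abcc5* -0.33, *Abcg1* -0.32, *Slc22a18* 0.01 and *Slco1a1* 2.68, and on log2(TPM + 1) *Abcb8* 0.09, *Abcc1* 0.10, *Abcc5* -0.31, *Abcg1* -0.22, *Slc22a18* 0.01, *Slco1a1* 1.13 and *Slco4c1* 0.00. With limma-voom they were *Abcc1* 0.01 and *Slco1a1* 4.29, and with upper-quartile factors *Abcc4* -0.00. With 1 kidney left out at a time, ranges that crossed or touched 0 were -0.13 to 0.13 for *Abcc1*, -0.26 to 0.31 for *Abcc4*, -0.09 to 0.18 for *Abcc5*, -0.04 to 0.51 for *Abcg1*, -0.03 to 0.12 for *Abcg2*, -0.18 to 0.30 for *Slc22a12*, -0.03 to 0.42 for *Slc22a2*, -0.02 to 0.86 for *Slc22a28*, -0.02 to 0.47 for *Slc22a7*, -1.65 to 0.67 for *Slco1a1*, -0.09 to 0.55 for *Slco3a1* and -0.33 to 0.32 for *Slco4c1*.

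Whether the replicate numbers pair the kidneys is not stated. The deviations of same-numbered samples correlated at -0.288 to 0.0531, and those of other numbers at -0.115 to 0.284. With 4 same-numbered pairs and controls 3 and 4 set apart from controls 1 and 2, these correlations cannot decide it. With a replicate block, 0 genes were called for genotype, 657 were at an unadjusted p under 0.05, 9 members were, and 12 members were called for Y-linked reads. The values that turned were *Abcc1* 0.02 and *Slco1a1* 1.56. With the block and the term for Y-linked reads together (chosen after seeing the data), 3 genes were called and the values that turned were *Abcc1* 0.45, *Abcc3* 0.87, *Abcg2* -0.21, *Slc22a12* -0.56, *Slc22a2* -0.37, *Slc22a22* -0.27, *Slc22a28* -0.54, *Slc22a29* 0.46, *Slc22a30* -0.48, *Slc22a6* -0.55, *Slc22a7* -0.22, *Slc47a1* -0.19 and *Slco3a1* -0.55.

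*Slc22a27*, at most 0.71 CPM in the 6 kidneys with Y-linked reads, fell under the filter and was not compared. With 4 kidneys a group, 2 of the controls set apart, and 1 library per kidney, a missed threshold does not show that levels were alike.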
